A study of Homo sapiens with 6 samples.

Results

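The epithelial trypsin-like serine proteases and the Kunitz inhibitors that restrain them were followed in SW480 cells after knockdown of ALDH1B1. The set comprised 10 genes, found by their symbols among the 22258 symbols of the expression table: the proteases PRSS56, ST14, PRSS8, PRSS22, PRSS23, TMPRSS2, TMPRSS4 and HPN and the inhibitors SPINT1 and SPINT2. SW480 is an established human colon cancer line, and ALDH1B1 is a mitochondrial aldehyde dehydrogenase. Expression was measured by RNA-seq with strand-specific libraries of total RNA in 3 ALDH1B1 KD samples and 3 SCR control samples, whose genotype is given as WT, all untreated and with replicates numbered 4, 5 and 6. The sources used here do not say how the knockdown was made, whether it is 1 clone, what SCR stands for or whether replicates were separate cultures, so errors and p-values measure sample-to-sample spread that may be technical. The genes were chosen with the KD against SCR differences in view, PRSS56 in particular for its size. Their own differences are therefore described with a standard error and carry no p-value. In bulk RNA of this kind, fewer cells that express a gene and less of its RNA per cell cannot be told apart.

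Trypsin-like serine proteases are made as inactive zymogens and become active when a cut frees a new amino terminus that folds into the active site. At epithelial surfaces the membrane proteases matriptase (ST14) and prostasin (PRSS8) activate one another and act on growth factor precursors, sodium channels and cell adhesion proteins. The hepatocyte growth factor activator inhibitors HAI-1 (SPINT1) and HAI-2 (SPINT2) are membrane proteins whose Kunitz domains plug the active sites of these proteases. HAI-1 and HAI-2 are also needed for matriptase to be handled correctly in the cell, and the gut epithelium breaks down in mice when matriptase is left without restraint.

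The promoters of 4 of the 10 genes were available from RefSeq (GRCh38.p14), with 7 annotated starts between them. A window of each is shown, because both windows of PRSS56, the gene with the largest difference of the 7 tested, held TATAAA and no other window did. Each line runs 5′ to 3′ on the coding strand from 250 bases before the start to 50 bases from it, and capitals mark TATAAA, the GC box core GGGCGG and the E-box CAGGTG, each read on both strands.
PRSS56 (chr2:232520138-232520437, plus strand): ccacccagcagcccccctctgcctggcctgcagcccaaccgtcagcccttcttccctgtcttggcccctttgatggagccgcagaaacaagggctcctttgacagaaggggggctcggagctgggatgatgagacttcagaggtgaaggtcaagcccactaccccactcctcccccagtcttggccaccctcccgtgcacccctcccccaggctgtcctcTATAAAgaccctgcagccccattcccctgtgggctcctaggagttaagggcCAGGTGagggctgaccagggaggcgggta
HPN (chr19:35041471-35041770, plus strand): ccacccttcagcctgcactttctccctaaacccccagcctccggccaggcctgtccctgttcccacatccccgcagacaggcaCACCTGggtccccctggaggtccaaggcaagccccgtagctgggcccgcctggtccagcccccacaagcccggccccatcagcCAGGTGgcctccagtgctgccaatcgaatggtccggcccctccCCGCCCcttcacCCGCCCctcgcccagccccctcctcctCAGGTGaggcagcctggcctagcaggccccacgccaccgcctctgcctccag
SPINT1 (chr15:40843798-40844097, plus strand): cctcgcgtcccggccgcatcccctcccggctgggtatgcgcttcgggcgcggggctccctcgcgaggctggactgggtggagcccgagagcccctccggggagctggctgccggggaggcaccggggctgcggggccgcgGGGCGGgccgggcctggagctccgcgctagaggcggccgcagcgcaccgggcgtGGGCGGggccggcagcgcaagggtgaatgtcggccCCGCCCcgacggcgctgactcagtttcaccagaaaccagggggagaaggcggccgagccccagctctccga
PRSS23 (chr11:86800292-86800591, plus strand): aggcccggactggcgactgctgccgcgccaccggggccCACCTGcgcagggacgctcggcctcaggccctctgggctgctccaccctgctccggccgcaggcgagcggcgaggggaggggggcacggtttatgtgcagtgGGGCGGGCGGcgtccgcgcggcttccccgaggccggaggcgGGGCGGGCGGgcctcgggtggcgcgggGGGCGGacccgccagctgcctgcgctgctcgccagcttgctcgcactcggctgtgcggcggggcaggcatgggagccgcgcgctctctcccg
In PRSS56 TATAAA began 30 bases before this start and CAGGTG 22 bases after it. The other annotated start of PRSS56 has the same pair of matches in an overlapping window, 105 and 54 bases before that start. The last bases of the other PRSS56 window lie in a GENCODE transcript, and those of the PRSS56 window shown do not. Which start these cells use was not tested. TATAAA or its complement was found in 11.5% of the 35116 promoters of this length. The PRSS23 window held 5 GGGCGG matches, of which neighbouring pairs overlap each other, the SPINT1 window held 3 and the HPN window 2 on either strand. The other 4 of the 7 windows, both of PRSS56 and the second windows of PRSS23 and SPINT1, held none. Of all promoters, 45% had a GC box core. CAGGTG or its complement CACCTG, the E-box form that Snail and ZEB repressors bind, was present in 5 of the 7 windows and in 20.6% of all promoters. The 5 include both PRSS56 windows, which share the same match, and windows of 4 genes are too few to compare with that share. AACCGG, the left part of the Grainyhead-like consensus, was in 0 of the 7 and in 7.23% of all. Other matches overlapped no second motif. A match is only these letters in the window. The PRSS56 window above was 63.7% G or C with 5 CG dinucleotides, against 77.7% and 38 for SPINT1, 79.3% and 40 for PRSS23 and 71.0% and 12 for HPN, and the median promoter had 58.7% and 14.

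ALDH1B1 had 19.99, 20.4 and 23.2 RPM (read counts scaled to a fixed library total, the scale of the table once its log is undone) in KD replicates 4, 5 and 6, against 34.1, 39.6 and 36.7 RPM in SCR replicates 4, 5 and 6. Its message stood at 57.6% of SCR, a log2 fold change of -0.80 (SE 0.0926, limma adjusted p = 2.37e-07, exact two-sided permutation p = 0.1, the smallest that 3 against 3 samples allow). The depth behind RPM was 20360000 to 28590000 reads per sample, so that 3 reads, taken as the floor, correspond to 0.105 to 0.147 RPM. A mean level of 0.688 RPM or more was asked of a gene for testing, which 15496 symbols met, among them 7 of the 10 genes. PRSS8, TMPRSS4 and HPN lay under that level. The labelled epithelial origin was visible in the keratins, of which KRT8 averaged 2743 ± 62.7 RPM in KD and 2702 ± 12.02 RPM in SCR (SD, n = 3 each). "Rose" and "fell" are used below only of genes outside the set of 10 and past an adjusted p of 0.05 in the limma fit across all tested genes, which 22.6% of them passed upward and 19.2% downward.

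PRSS56, a secreted protease that in the eye takes part in setting its length, had 25.1, 20.4 and 21.8 RPM in KD replicates 4, 5 and 6, against 2.17, 2.61 and 1.78 RPM in SCR replicates 4, 5 and 6. Every KD sample was far above every SCR sample. The gene (chromosome 2, 233385173 to 233390423 in the coordinates of the table, whose build is not settled) averaged 22.4 ± 2.41 RPM in KD and 2.19 ± 0.412 RPM in SCR, a ratio of 10.2 and a log2 fold change of 3.37 (SE 0.144). It ranked 13 among all tested genes by log2 fold change. Between 415 and 570 reads per KD sample and between 42 and 62 reads per SCR sample lay behind these values. Of 7 markers of glia and retina 4 were matched (GLUL, PAX6, SLC1A3 and RLBP1), and their summed level of 149.8 to 163.7 RPM in KD and 157.7 to 176.8 RPM in SCR overlapped between groups. RLBP1 rose, SLC1A3 fell and the other two did not pass, and the part of these markers in the PRSS56 value was not tested.

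The genes most like PRSS56 in their pattern over the 6 samples, by Euclidean distance between mean-centred log2 values, were ANTXR1, a collagen-binding anthrax toxin receptor (distance 0.684), the receptor tyrosine kinase ALK (0.725) and CAPN8, a calpain of the stomach lining (0.844). Their log2 fold changes were 2.96, 3.86 and 2.87. Since the contrast between groups dominates the distance, these are genes with a difference of similar size.

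ST14, which encodes matriptase, was the most abundant of the proteases. It had 162.5, 161.03 and 163.3 RPM in KD replicates 4, 5 and 6, against 135.2, 134.97 and 113.6 RPM in SCR replicates 4, 5 and 6. The KD samples were nearly equal to one another and all above the SCR samples, of which replicate 6 was the lowest. ST14 (chromosome 11, 130029457 to 130080272) averaged 162.3 ± 1.14 RPM in KD and 127.95 ± 12.4 RPM in SCR (SD, n = 3 each). Its log2 fold change was 0.35 (SE 0.0781). Without SCR replicate 6 the log2 fold change was 0.26.

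SPINT1, which encodes HAI-1, had 59.5, 63.03 and 68.03 RPM in KD replicates 4, 5 and 6, against 55.0, 58.4 and 48.9 RPM in SCR replicates 4, 5 and 6. The groups did not overlap, but the lowest KD sample lay only slightly above the highest SCR sample. The gene (chromosome 15, 41136216 to 41150406) had a log2 fold change of 0.23 (SE 0.0843), with 63.5 ± 4.31 RPM in KD and 54.1 ± 4.78 RPM in SCR. It was no longer past the threshold without KD replicate 5, KD replicate 6, SCR replicate 4 or SCR replicate 6, where the log2 fold change was 0.24, 0.18, 0.25 and 0.16, and the same held with the replicate block, without a filter and without a variance trend. An unnamed locus on the opposite strand, RP11-532F12.5, overlaps the start of SPINT1 and had 4.71 RPM in KD and 3.59 RPM in SCR.

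SPINT2, which encodes HAI-2, was the most abundant gene of the set and the one that differed least. It had 223.9, 220.2 and 239.9 RPM in KD replicates 4, 5 and 6, against 244.7, 240.7 and 215.6 RPM in SCR replicates 4, 5 and 6. The groups overlapped, with both the highest and the lowest of the 6 values in SCR. Its log2 fold change was -0.03 (SE 0.0753; chromosome 19, 38734675 to 38783255).

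**Figure D1:**
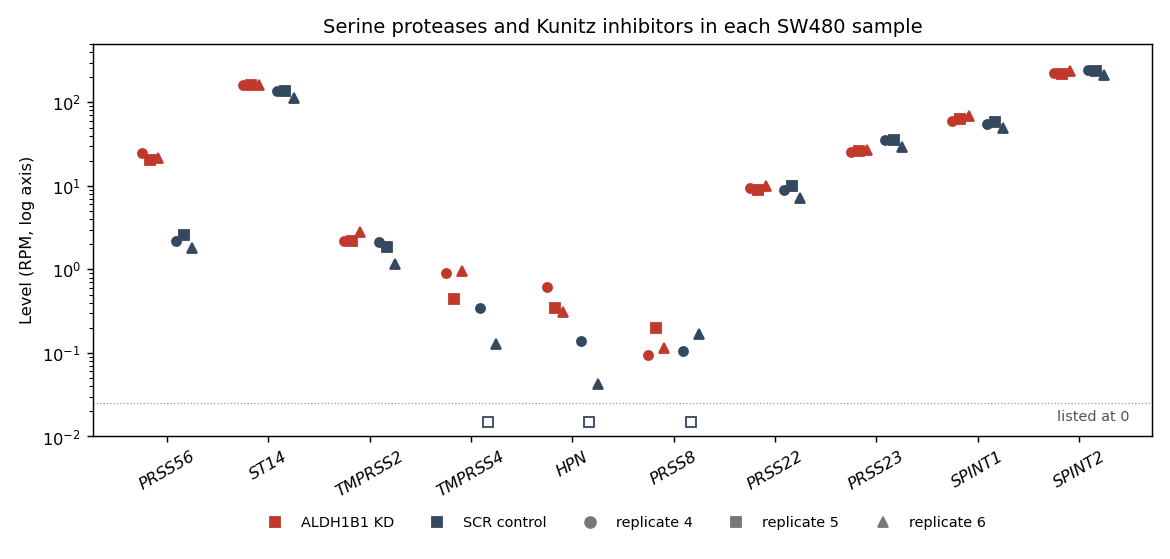
Level of each gene in every sample in RPM on a log axis, with KD samples left of SCR samples, a symbol shape for each replicate number and open symbols for values listed at 0. PRSS56 shows the widest gap between groups (22.4 against 2.19 RPM), SPINT2 the least, and SCR replicate 5 is at 0 for PRSS8, TMPRSS4 and HPN.

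Of the other proteases at the cell surface, TMPRSS2, known from prostate and airway epithelium and as a protease that primes viral spike proteins, had 2.18, 2.16 and 2.79 RPM in KD replicates 4, 5 and 6, against 2.13, 1.85 and 1.15 RPM in SCR replicates 4, 5 and 6. The groups touched without overlapping, and SCR replicate 6 lay well below the others. The log2 fold change of 0.51 (SE 0.242) did not pass the threshold. It was 0.25 without SCR replicate 6 and 0.70 without SCR replicate 4, where it passed (chromosome 21, 42836478 to 42903044).

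PRSS22, the secreted tryptase epsilon of airway epithelium, had 9.36, 8.89 and 9.94 RPM in KD replicates 4, 5 and 6, against 8.92, 10.01 and 7.18 RPM in SCR replicates 4, 5 and 6. The groups overlapped, and its log2 fold change was 0.12 (SE 0.129). That value was -0.01 without SCR replicate 6 and under quantile normalization, so the direction was not fixed (chromosome 16, 2902728 to 2908172).

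PRSS23, a secreted protease widely expressed beyond epithelium, was lower in KD. It had 25.8, 26.03 and 26.9 RPM in KD replicates 4, 5 and 6, against 35.4, 35.3 and 29.4 RPM in SCR replicates 4, 5 and 6. All KD samples lay below all SCR samples, and the KD samples were close together. The log2 fold change was -0.34 (SE 0.0916) and -0.43 without SCR replicate 6 (chromosome 11, 86502101 to 86663953). The last 7233 bases of its span overlap FZD4, a Wnt receptor on the opposite strand, which rose by 0.81 (SE 0.145, limma adjusted p = 7.84e-05), with 8.09 RPM in KD and 4.66 RPM in SCR. The sources used here do not say whether counting used the strand, so reads from that overlap cannot be told apart.

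TMPRSS4, HPN and PRSS8 rested on few reads and were not tested. TMPRSS4, a membrane protease linked to invasion of gut tumours, had about 19, 9 and 25 reads in KD replicates 4, 5 and 6 (0.902, 0.442 and 0.956 RPM), against 10, 0 and 3 reads in SCR replicates 4, 5 and 6 (0.350, 0 and 0.127 RPM). Hepsin, HPN, a membrane protease of liver that is raised in prostate cancer, had about 13, 7 and 8 reads in KD (0.617, 0.344 and 0.306 RPM), against 4, 0 and 1 in SCR (0.140, 0 and 0.0425 RPM). For both genes every KD sample was above every SCR sample. Prostasin, PRSS8, the GPI-anchored partner of matriptase, had about 2, 4 and 3 reads in KD (0.0950, 0.196 and 0.115 RPM), against 3, 0 and 4 in SCR (0.105, 0 and 0.170 RPM), so it stood at or near the floor of 3 reads in every sample.

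Pooled over the samples of a group and scaled to depth, the ratio of KD to SCR was 4.42 for TMPRSS4 (95% exact interval 2.38 to 8.83) and 6.07 for HPN (2.31 to 20.1), and 1.39 for PRSS8 (0.462 to 4.40). Without SCR replicate 5, in which all 3 genes were listed at 0, the ratios were 3.14 (1.69 to 6.29), 4.32 (1.65 to 14.3) and 0.992 (0.329 to 3.13). These intervals cover counting error only, not the spread between cultures, and a value of 0 allows up to 3 reads, or 0.142 RPM, in that library. SCR replicate 5 had 606 symbols at 0, the most of the 6 samples, against 267 to 517 in the others. The part that this library has in the differences of TMPRSS4 and HPN was not tested. PRSS8 was not detectably different at this depth. None of the 8 liver marker genes was analysed here. Of the prostate markers, SLC45A3, a membrane transporter, rose by 0.71 on the log2 scale, KLK3 rose at a low level given below, and TGM4, a transglutaminase of prostate, had at most 0.153 RPM in KD and 0.510 RPM in SCR. The part of these markers in the HPN and TMPRSS2 values was not tested.

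In all, 6 of the 10 genes were higher in every KD sample than in every SCR sample (PRSS56, ST14, SPINT1, TMPRSS2, TMPRSS4 and HPN), 1 was lower (PRSS23) and 3 overlapped. Of all symbols in the the listed symbols 23% were higher without overlap, and of tested genes 26.5% were higher and 24.6% lower, 51% in all. Past the threshold were 3 upward and 1 downward of the 7 tested, where 41.8% of all tested genes passed in either direction. As the genes were chosen with this comparison known, nothing is read from these counts or from a gene's side of the threshold. The median log2 fold change of the 7 was 0.23 and that of all tested genes was 0.00067.

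Per kilobase of merged exons (GENCODE 29 lengths, since the gene models of the table are not given), the order of levels in KD was SPINT2 with 126.5 ± 5.81, ST14 with 45.8 ± 0.322, SPINT1 with 20.8 ± 1.41, PRSS56 with 10.4 ± 1.11, PRSS22 with 6.78 ± 0.378, PRSS23 with 4.43 ± 0.102 and TMPRSS2 with 0.716 ± 0.107 RPM per kilobase (SD, n = 3). In SCR the order was SPINT2 with 129.7 ± 8.77, ST14 with 36.2 ± 3.50, SPINT1 with 17.7 ± 1.56, PRSS22 with 6.28 ± 1.03, PRSS23 with 5.63 ± 0.581, PRSS56 with 1.01 ± 0.191 and TMPRSS2 with 0.515 ± 0.153 RPM per kilobase. PRSS56 thus stood above PRSS22 and PRSS23 in KD and below both in SCR. PRSS22 and PRSS23 did not differ beyond their spread in SCR. The other neighbours in each order were separated by more than their SDs.

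SCR replicate 6 had the lowest value of the 3 SCR samples for 7 of the 7 tested genes, as it did for 69% of all tested genes. After rescaling by median of ratios, which moved SCR replicate 6 most (factor 0.934, against 0.981 to 1.04 for the others), it was still the lowest for 7 of 7, and for 36.4% of all tested genes. Among KD samples replicate 6 was the highest for 6 of the 7 tested genes, PRSS56 being the exception, and for 51.4% of all tested genes. With both the rescaling and SCR replicate 6 left out, the log2 fold changes were 3.27 for PRSS56, 0.31 for ST14, 0.21 for SPINT1, 0.29 for TMPRSS2, 0.03 for PRSS22, -0.05 for SPINT2 and -0.39 for PRSS23.

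**Figure D2:**
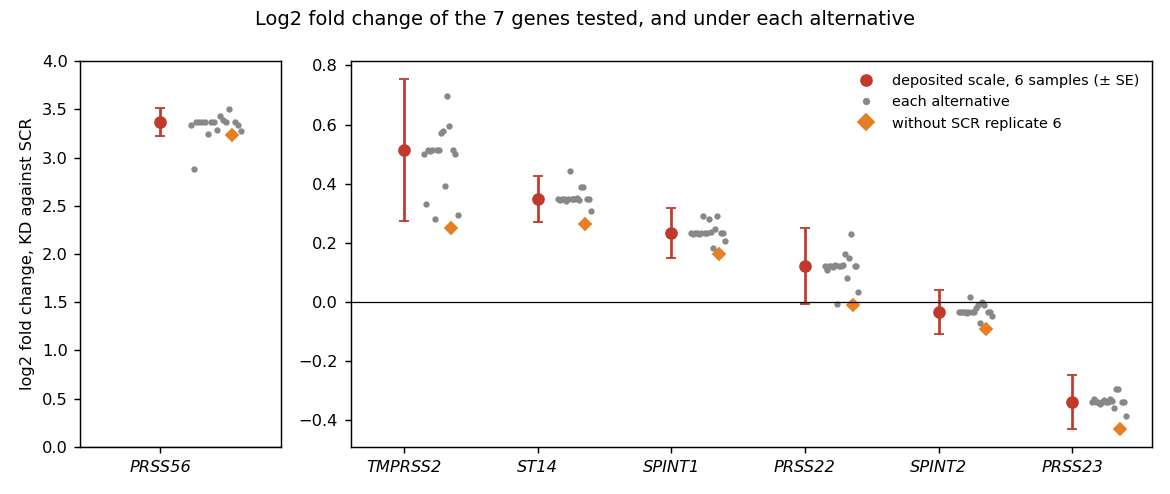
Log2 fold change, KD against SCR, of the 7 tested genes with its SE (red) and its value under each alternative setting (grey, with orange for the fit without SCR replicate 6), with PRSS56 on its own axis. PRSS56 stays between 2.88 and 3.50 and PRSS23 between -0.43 and -0.30, whereas PRSS22 and SPINT2 lie on both sides of 0.

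Ratios within a sample do not depend on scaling between samples, and so they show how protease and inhibitor transcripts stood to each other. The ratio of ST14 to SPINT2 was 0.726, 0.731 and 0.681 in KD replicates 4, 5 and 6, against 0.553, 0.561 and 0.527 in SCR replicates 4, 5 and 6. Every KD sample was above every SCR sample, with means of 0.712 ± 0.0278 in KD and 0.547 ± 0.0175 in SCR (SD, n = 3 each) and a log2 difference of 0.38. Leaving out any single sample gave 0.36 to 0.41. The ratio between the inhibitors themselves moved as well: SPINT1 to SPINT2 was 0.266, 0.286 and 0.284 in KD, against 0.225, 0.243 and 0.227 in SCR, without overlap and with a log2 difference of 0.27.

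Matriptase and HAI-1 transcripts kept closer to each other. The ratio of ST14 to SPINT1 was 2.73, 2.55 and 2.40 in KD replicates 4, 5 and 6, against 2.46, 2.31 and 2.32 in SCR replicates 4, 5 and 6. The groups overlapped, and the log2 difference was 0.11, with SDs of 0.0936 in KD and 0.0498 in SCR. It was 0.07 without KD replicate 4 and 0.16 without KD replicate 6. TMPRSS2 to SPINT2 was 0.0104 ± 0.00107 in KD and 0.00724 ± 0.00174 in SCR without overlap, and TMPRSS2 to SPINT1 was 0.0373 ± 0.00340 in KD and 0.0313 ± 0.00769 in SCR with overlap. These ratios describe RNA and not protein or activity.

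**Figure D3:**
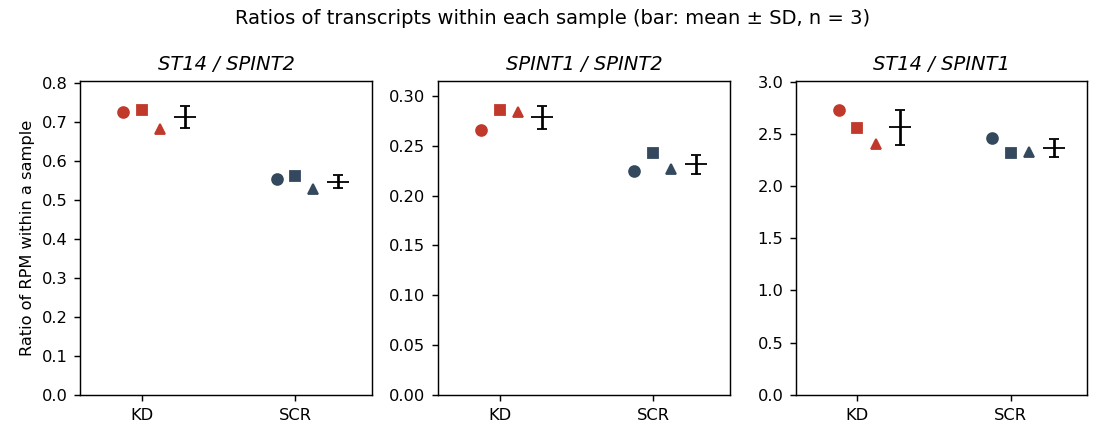
Ratios of RPM within each sample for 3 pairs, KD left of SCR, with the mean ± SD beside the points and each axis starting at 0. ST14 to SPINT2 and SPINT1 to SPINT2 separate the groups, and ST14 to SPINT1 does not.

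Around PRSS56 the 20 nearest tested genes, 10 on each side, had a median log2 fold change of -0.01, with 6 that rose and 3 that fell. CHRND, the delta subunit of the muscle acetylcholine receptor, begins 279 bases after the end of PRSS56 on the same strand, and had 4.27, 4.81 and 4.43 RPM in KD replicates 4, 5 and 6, against 0.735, 0.806 and 0.892 RPM in SCR replicates 4, 5 and 6. It rose by 2.48 on the log2 scale (SE 0.218, limma adjusted p = 2.23e-09). ECEL1, an endopeptidase of neurons that lies 32.6 kb before PRSS56, rose by 0.90 (SE 0.1800, limma adjusted p = 0.000282), and ALPP, placental alkaline phosphatase and the next tested gene beyond it, by 1.80 (SE 0.175, limma adjusted p = 1.23e-08), although ALPP has near-identical copies that may share its reads. TIGD1, the next tested gene after CHRND, had a log2 fold change of -0.19. Whether reads that run past the end of PRSS56 enter CHRND was not tested.

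Around TMPRSS2 many genes were higher. Of its 20 nearest tested genes 10 rose and 0 fell and the median was 0.30 on the log2 scale, and of the nearest 40, 26 rose and 1 fell with a median of 0.33. MX1, an interferon-induced antiviral GTPase, rose by 0.70, RIPK4, a kinase of epithelial differentiation, by 0.91, and TMPRSS3, a related membrane protease 889 kb away, by 0.90. The log2 fold change of 0.51 for TMPRSS2 lay inside the range of its 20 nearest tested genes, from -0.21 to 0.91. Those around PRSS56 ran from -0.38 to 2.48. PRSS56 was chosen for the size of its difference, so nothing is read from the place of its 3.37 beside that range. The medians around the other genes ran from -0.07 (SPINT1) to 0.15 (HPN), with 0.02 for ST14 and -0.05 for PRSS23. PRSS33, the nearest tested gene on one side of PRSS22, rose by 1.18 while PRSS22 did not pass the threshold.

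**Figure D4:**
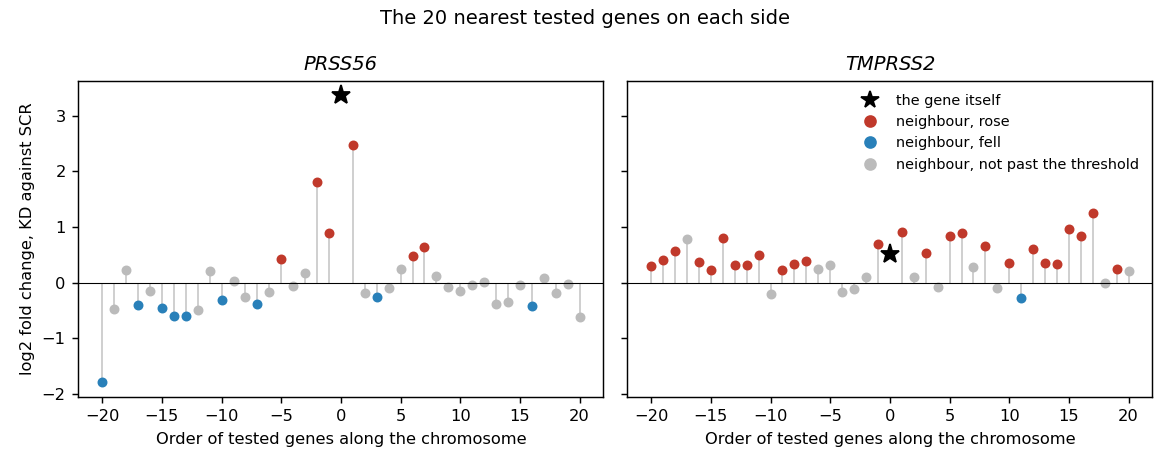
Log2 fold change, KD against SCR, of the 20 nearest tested genes on each side of PRSS56 and TMPRSS2, in their order along the chromosome, with the gene itself as a star. The 3 highest neighbours of PRSS56 are CHRND, ALPP and ECEL1, while TIGD1, next after CHRND, is at -0.19, and around TMPRSS2 26 of 40 neighbours rose.

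A list drawn up as other membrane-anchored serine proteases had 5 tested genes (of 18 listed). Of these 3 rose and 0 fell, and their median was 0.80 on the log2 scale. Whether each protein of the list is anchored, PRSS33 among them, was not checked, so the count and median describe the list only. TMPRSS3, a protease needed for hearing and also found in tumours, rose to 5.01 ± 0.279 RPM in KD, against 2.69 ± 0.121 RPM in SCR (SD, n = 3 each; log2 fold change 0.90, SE 0.162, limma adjusted p = 8.94e-05). PRSS33 rose by 1.18 (adjusted p = 0.000455) and PRSS27, the epithelial protease marapsin, by 0.80 (adjusted p = 0.00758), both by limma. TMPRSS9 and TMPRSS5 had log2 fold changes of 0.45 and 0.56 and did not pass, and that of TMPRSS5 was 0.18 without KD replicate 4 and 1.16 without KD replicate 5, where it passed (limma adjusted p = 0.00586).

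Among the other secreted trypsin-like proteases 7 of the 10 tested (33 listed) rose and 0 fell, with a median of 0.70. Trypsin-like names the protease family here and not the bonds that each member cuts. The kallikreins, a protease family clustered on chromosome 19, made up 5 of them. KLK6 had 106.7, 104.7 and 124.8 RPM in KD replicates 4, 5 and 6, against 78.99, 79.96 and 73.5 RPM in SCR replicates 4, 5 and 6. KLK10 rose by 1.37 (SE 0.101, limma adjusted p = 1.06e-10), KLK7, which acts in skin shedding, by 1.21, KLK6 by 0.53 and KLK1, tissue kallikrein, by 0.77. KLK3, prostate-specific antigen, rose by 1.87 at a low level of 1.20 ± 0.182 RPM in KD and 0.339 ± 0.120 RPM in SCR. The plasminogen activators PLAU and PLAT rose by 0.63 and 0.79, and trypsinogen PRSS3, whose near-identical relatives may share reads, had a log2 fold change of -0.09.

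Genes with a Kunitz domain outside the HAI pair went in both directions. Of the 5 tested (16 listed), 2 rose and 1 fell, with a median of -0.10. The list rests on the domain alone, and whether each protein inhibits a protease was not tested. COL7A1, the collagen of anchoring fibrils, rose by 1.24 and PAPLN, papilin, by 0.71. APP, the amyloid precursor, fell by 0.21 on the log2 scale (SE 0.0771, limma adjusted p = 0.0303), a call that was lost without KD replicate 4 or 5 or SCR replicate 4 or 5 (log2 fold change of -0.22 to -0.17) and with the replicate block. That call was also lost without a filter and without a variance trend. APLP2, its relative and the nearest tested gene on one side of ST14, had 328.4 ± 11.1 RPM in KD and 351.5 ± 13.9 RPM in SCR and a log2 fold change of -0.10, and neither it nor COL6A3 passed. The log2 fold change of COL6A3 was -0.62 and rested on 1 library, with -0.12 without KD replicate 4. Around COL7A1, on chromosome 3, 14 of 20 neighbours rose and 0 fell.

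Of the 13 tested inhibitors of other families (24 listed), 8 rose and 1 fell, with a median of 0.50. WFDC2, a secreted whey acidic protein known as HE4, had 14.4 ± 1.79 RPM in KD and 5.98 ± 0.739 RPM in SCR and rose by 1.26 (SE 0.127, limma adjusted p = 2.31e-08). SERPINA1, alpha-1-antitrypsin, rose by 0.76, the maspin gene SERPINB5 by 1.30 (0.86 without SCR replicate 6), and SERPINB1 and SERPINB6 by 0.46 and 0.54. SERPINE2, protease nexin, fell by 1.17 on the log2 scale (adjusted p = 3.20e-08 by limma).

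The proteins on which these proteases act, and the receptors downstream, formed a list with 16 tested genes of 23, of which 10 rose and 2 fell, with a median of 0.43. EPCAM, an adhesion protein that matriptase cleaves, had 203.8, 205.0 and 209.9 RPM in KD replicates 4, 5 and 6, against 116.1, 113.8 and 101.4 RPM in SCR replicates 4, 5 and 6. It rose by 0.90 (SE 0.0748, limma adjusted p = 8.48e-10). CLDN7, a claudin that binds EPCAM at the membrane, rose by 0.47. The epithelial sodium channel, which prostasin and matriptase activate, was represented by its alpha subunit SCNN1A, with 145.4 ± 12.7 RPM in KD and 88.97 ± 12.7 RPM in SCR (log2 fold change 0.72, limma adjusted p = 1.00e-06), and its delta subunit SCNN1D, which rose by 1.48.

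Macrophage-stimulating protein, MST1, and its receptor MST1R, a pair in which the ligand is cut by matriptase and hepsin, rose by 1.07 and 0.86. MET, the receptor for the related hepatocyte growth factor, fell by 0.29 on the log2 scale (SE 0.102, limma adjusted p = 0.0241), a call lost without KD replicate 4, KD replicate 5 or SCR replicate 6 (log2 fold change of -0.29 to -0.22) and with the replicate block. The call was also lost with median of ratios scaling and SCR replicate 6 left out, at -0.18. The protease-activated receptor F2RL1 rose by 0.35 and lost the call without KD replicate 5 or SCR replicate 6, where it had 0.36 and 0.19. F2RL1 also lost it without a filter and without a variance trend. LAMB3 and FLG rose by 0.63 and 0.53, PDGFC fell by 1.32, and PLAUR, F2R and CDCP1 did not pass, with log2 fold changes of 0.23, -0.22 and -0.06. Of the 20 tested neighbours 12 rose around EPCAM, 14 around MST1 and 12 around MST1R.

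**Figure D5:**
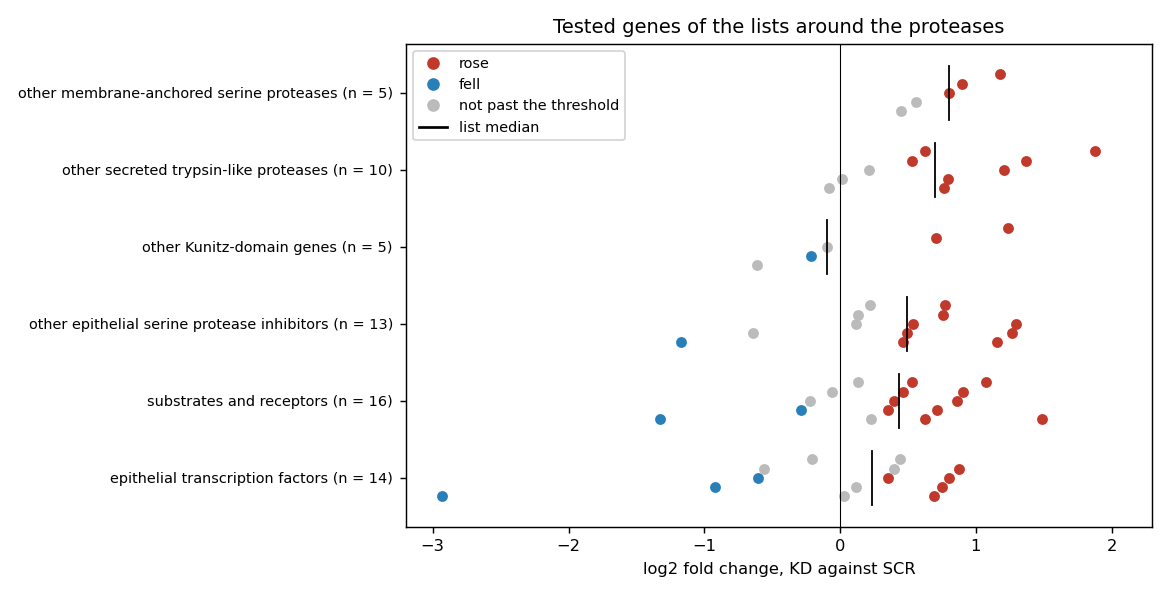
Log2 fold change, KD against SCR, of each tested gene in the 6 lists around the proteases, coloured by whether it rose, fell or did not pass, with a line at each list median. The medians run from -0.10 for other Kunitz-domain genes to 0.80 for the list drawn up as other membrane-anchored proteases.

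Among 14 tested regulators tied to epithelial state (21 listed) 5 rose and 3 fell, with a median of 0.24. The list mixes epithelial factors with the repressors SNAI1, SNAI2 and ZEB1 and the splicing regulators ESRP1 and ESRP2. The count and the median therefore describe no single class. GRHL1, a Grainyhead-like factor, had 9.94 ± 1.42 RPM in KD and 5.69 ± 0.638 RPM in SCR and rose by 0.80 (SE 0.135, limma adjusted p = 4.04e-05). The splicing regulator ESRP1, the ETS factor ELF3 and HNF4A rose by 0.75, 0.87 and 0.69. The repressor SNAI2, which binds the E-box shown above, had 0.349 ± 0.0915 RPM in KD and 2.62 ± 0.471 RPM in SCR. It fell by 2.93 on the log2 scale (SE 0.326, limma adjusted p = 1.23e-07), and ZEB1 fell by 0.60 (limma adjusted p = 0.00121). SNAI1 went the other way, with a log2 fold change of 0.39, and did not pass. Its level was 4.49 RPM in KD and 3.43 RPM in SCR. KLF4 fell by 0.92. ESRP2 and OVOL2, also tied to epithelial state, had log2 fold changes of 0.03 and 0.12 and did not pass.

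The summed level of 9 of 11 colon epithelial markers was 5830.04 to 6142 RPM in KD and 5433 to 5689 RPM in SCR, without overlap. Most of this sum was KRT8, KRT18 and KRT19, given below. Of all tested genes taken singly, 51% did not overlap. Of the 7 tested, 3 rose and 1 fell. E-cadherin, CDH1, rose by 1.98 and villin, VIL1, by 1.90, EPCAM as given above, and the intestinal factor CDX2 fell by 0.76 on the log2 scale. The part of these markers in the protease values was not tested. KRT8 did not pass, nor did KRT18 and KRT19, at 2131 ± 133.9 and 811.2 ± 30.2 RPM in KD and 1881 ± 90.2 and 785.8 ± 32.1 RPM in SCR. LGR5 was listed at 0 in every KD sample and had 0.245, 0.190 and 0.170 RPM in SCR replicates 4, 5 and 6, near the floor. Markers of fibroblasts (COL1A1, PDGFRB and THY1, 3 of 7) summed to 5.37 to 7.03 RPM in KD and 4.18 to 5.74 RPM in SCR, and those of endothelium (VWF and CLDN5, 2 of 6) to 0.497 to 0.786 RPM in KD and 0.617 to 0.765 RPM in SCR. Of leukocyte markers CD68 fell by 1.93 on the log2 scale, CD14 averaged 0.530 RPM in KD and 0.766 RPM in SCR, and HLA-DRA averaged 1.15 RPM in KD and 0.147 RPM in SCR.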

How the data were processed

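RNA-seq of 3 ALDH1B1 KD and 3 SCR samples of SW480 was used as deposited, in 1 table. The submitters' processing notes name Partek and Bowtie, without versions, and hg38; positions in the table end at 249214146 on chromosome 1, beyond 248937043 in GENCODE 29 (GRCh38), so the build is not settled. The values the authors deposited are log2 of RPM plus 0.0001, a scale read from the values: each column has its floor there, and 76.3% to 78.5% of values under 0.6 RPM are within 0.02 reads of a whole multiple of 1 step, taken as 1 read. As a share was not whole, no count model was run. The symbols listed held 65.1% to 71.1% of the depth. The sources used here do not give the counting, strand use, gene models or filters.

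There were 24549 lines with 22258 symbols, and 1192 symbols at several loci had equal values and were used once. Genes averaging 0.688 RPM or more were tested with limma 3.58.1 (R 4.3.3), lmFit and eBayes with a trend, KD against SCR, two-sided, with no covariates and Benjamini-Hochberg adjustment over all 15496 genes, at 0.05. The fit was tested on simulated data. Intervals are exact Clopper-Pearson at 95%, and the floor is 3 reads.

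The genes, lists, tests and alternatives were chosen with earlier results of these data known. Named were the 10 genes, ALDH1B1, and, in lists, up to 6 tested genes past the threshold with the smallest p. All tested genes of the lists of membrane-anchored proteases, Kunitz genes and substrates and receptors could be named, and also nearest neighbours, the most abundant markers and the 3 genes most like PRSS56. ALPP, TIGD1, FZD4, RP11-532F12.5, KLK3, PRSS3, ESRP2, OVOL2, SNAI1, ZEB1, LGR5, CDH1, VIL1, CDX2, RLBP1 and the low markers were named after their values were seen. Some genes of the lists are not reported here by name. No protein sequences were used here. Alternatives were offsets of 0.05 and 1, no filter or one 5 times as high, 3 other scalings, eBayes without trend or robust, each sample left out, and the replicate number as a block.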

Additional observations from a re-analysis of the deposited data

How the results depend on the processing

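Over 16 other settings and 2 chosen after seeing the data (no filter with an offset of 0.05, and median of ratios without SCR replicate 6), the number of genes past the threshold stayed within 4929 to 7666, around 6480. The 10 genes were chosen on this comparison, so how often they passed is a description and supports nothing: PRSS56, ST14 and PRSS23 passed under 18 of 18, SPINT1 under 11, TMPRSS2 under 1 of 17, and PRSS22 and SPINT2 under 0. Leaving out single samples gave 3 or 4 genes past the threshold, a median log2 fold change of 0.16 to 0.29, and -0.86 to -0.74 for ALDH1B1. TMPRSS4 and HPN passed only with no filter and an offset of 0.05, where 6 genes passed, with log2 fold changes that depend on the offset. Of 36 list genes past the threshold that the naming rule covers, 32 passed under every alternative in which they were tested, and 0 changed direction. The filter 5 times as high left 5 of these 32 untested. The other 4, among them APP, F2RL1 and MET, lost the call under at least 1. The share of calls that rose was 54.1%, with 45% without SCR replicate 6 and 61.7% without SCR replicate 5 as the extremes, and 46.8% under quantile normalization. Deviations from the group mean of samples with the same replicate number correlated at -0.0494, -0.0646 and -0.1254. These values also carry differences in scale between samples, so they cannot show whether the numbers pair samples. With the replicate block 5481 genes passed, 3 of the 7 among them. The median of the 7 was 0.23, since a block cannot move fold changes in this balanced design. Depth limits PRSS8, TMPRSS4 and HPN, which rest on 25 reads or fewer per sample.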
